A study of Saccharomyces cerevisiae with 28 samples.

Results

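The heat shock chaperone genes of budding yeast were followed here as 10 genes, fixed by name: the cytosolic Hsp70 genes SSA1 (YAL005C), SSA2 (YLL024C), SSA3 (YBL075C) and SSA4 (YER103W), the Hsp90 genes HSC82 (YMR186W) and HSP82 (YPL240C), the disaggregase gene HSP104 (YLL026W), the small heat shock protein genes HSP26 (YBR072W) and HSP42 (YDR171W), and the sequestrase gene BTN2 (YGR142W). They are 10 of the 7125 genes in the deposited table, and all 10 were detected in all 28 libraries. RNA was sequenced from 8 strains of Saccharomyces cerevisiae, 5 mutants and 3 wild types. BY4741, a common laboratory strain, was the control of the mutants sam1, ser33 and shm2. The remaining mutants, pyk1 and acs2-ts, each had a wild type of their own. All strains grew in YPD, a rich medium with glucose, to an OD600 between 0.7 and 1.0. The sample labels name each mutant by its gene alone, the ending -ts of acs2-ts comes from the description of the series, and neither gives a further allele, no other genotype of the wild types and no growth temperature, although heat is the classic inducer of these genes. Each strain had 2 biological replicates, called cultures below. In 6 of the strains (all but pyk1 and its wild type) each culture had a second library, labelled as a technical replicate. The labels do not say how the replicates were kept apart, so the p-values measure only the spread between these samples.

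Chaperones bind unfolded or misfolded proteins and help them to fold, to be pulled out of aggregates or to be stored until they can be refolded. Hsp70 binds short exposed stretches, Hsp90 acts later on proteins that are nearly folded, Hsp104 threads proteins out of aggregates together with Hsp70, and the small heat shock proteins and Btn2 hold misfolded proteins in deposits. In yeast, heat shock factor Hsf1 binds heat shock elements (HSEs), which are inverted repeats of the letters GAA, and the factors Msn2 and Msn4 bind the stress response element (STRE). SSA2 and HSC82 are known as the constitutive genes of their families, SSA1 is expressed in unstressed cells and rises with heat, and SSA3, SSA4 and HSP82 are the inducible partners.

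The stretches upstream of the genes are shown first because they carry the known heat response of the family. A repeat was counted where the 8 letters TTCNNGAA or GAANNTTC occurred on either strand, and one more unit in the same spacing made a run of 3, so that the counts of runs of at least 2 units include those of at least 3. In the 500 bases before the start codon, 9 of the 10 genes held a run of at least 2 units, beside 35.2% of 6000 yeast genes. Runs of at least 3 units stood before 5 of the 10 genes, beside 1.48% of all genes. STRE letters (AGGGG or CCCCT) stood before 6 of the 10, beside 34.1% of all genes. In the shorter window from 250 bases before to 50 after the start codon, the 2-unit run was found for 6, the 3-unit run for 2 and the STRE for 5 of the 10 genes, beside 22.6%, 0.783% and 21.6% of 6001 genes. SSA3 held none of these letters in either window. The longest run of each of the 5 genes with at least 3 units is printed from the R64 genome (sacCer3), 5′ to 3′ on the strand of the gene, with the GAA and TTC units in capitals.
HSP104: atatttTTCcaGAAttTTCtaGAAgggtta
SSA1: taaactTTCcaGAAcaTTCtaGAAagaaag
HSP42: taaaagTTCtgGAAggTTCgcGAAttgaga
BTN2: ttttttTTCtaGAAagTTCcgGAAaattgc
SSA2: gtttttTTCtaGAAcaTTCcatcga
The first 4 of these runs have 4 units and the run of SSA2 has 3. They lie at chrXII:88315-88344 for HSP104 (plus strand), chrI:141772-141801 for SSA1 (minus strand), chrIV:806372-806401 for HSP42 (plus strand), chrVII:772104-772133 for BTN2 (plus strand) and chrXII:97700-97724 for SSA2 (minus strand), between 364 and 221 bases before the start codon. These matches describe the letters only. No binding was measured.

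The coding regions show which of the 10 transcripts could share reads. SSA1 and SSA2 were identical at 96.4% of aligned bases, HSP82 and HSC82 at 91.7%, and SSA3 and SSA4 at 76.7%. Of all stretches of 50 bases, 57.9% of those in SSA1 and 58.2% of those in SSA2 occurred in both genes, against 6.39% in HSP82, 6.43% in HSC82 and 0 in the other 6 genes. How the authors' counting divided reads that fit both genes is not given in the sources used here, so the separate values of SSA1 and SSA2 are uncertain.

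Levels are in RPKM, reads scaled by the length of the gene and by the reads of the library, which allows different genes to be set side by side. The values are the mean of the libraries of a culture, and a strain is given by its mean ± SD over 2 cultures. Reads recovered from the RPKM steps numbered between 4330000 and 36520000 per library with a median of 14820000, and the thinnest value of a chaperone gene rested on 183 reads (BTN2 in a sam1 library). The gene named in the label was near 0 in 3 mutants: SAM1 was between 0.211 and 0.298 RPKM in the sam1 cultures, SER33 between 0.318 and 0.352 in ser33, and SHM2 between 0.152 and 0.212 in shm2, all against at least 28.9 in BY4741. ACS2 was between 505 and 557 RPKM in acs2-ts and between 219 and 247 in its wild type, and CDC19, which encodes pyruvate kinase Pyk1, was between 3896 and 4147 in pyk1 and between 3162 and 4073 in its wild type, so transcript level does not check the labels of these last mutants. In total RNA of whole cultures, fewer cells that express a gene and less RNA per cell cannot be told apart.

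The 4 Hsp70 genes spanned a wide range of levels. SSA1 and SSA2 were abundant in all strains, with strain means from 1685 ± 481 RPKM in sam1 to 2725 ± 360 in ser33 for SSA1 and from 1605 ± 434 in sam1 to 3017 ± 405 in ser33 for SSA2. The SSA1 levels overlapped between each pair of neighbours in the order of the strains. For SSA2, only ser33 stood apart from the next strain, the wild type of acs2-ts, where the 2 cultures reached 2166 and 2546 RPKM against 2731 and 3303 in ser33.

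SSA4 and SSA3, the inducible Hsp70 genes, were lower and varied more. SSA4 measured 309 and 649 RPKM in the BY4741 cultures, 452 and 511 in ser33, 191 and 436 in shm2, and 51.1 and 92.1 in sam1. In the other strains it measured 274 and 275 RPKM in the wild type of acs2-ts, 282 and 345 in acs2-ts, 149 and 170 in the wild type of pyk1, and 181 and 348 in pyk1. Both sam1 cultures were thus below the other 14 cultures. SSA3 measured 72.1 and 230.2 RPKM in BY4741, 92.2 and 94.6 in ser33, 25.6 and 100.7 in shm2, and 15.4 and 20.1 in sam1. It measured 35.1 and 47.6 RPKM in the wild type of acs2-ts, 57.1 and 71.2 in acs2-ts, 36.4 and 39.0 in the wild type of pyk1, and 42.7 and 51.3 in pyk1. The sam1 cultures were again the lowest, while the BY4741 cultures differed by a factor of 3.19 and the shm2 cultures by a factor of 3.93.

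Of the Hsp90 genes, HSC82 was the more abundant in both cultures of 6 strains, whereas HSP82 was in both cultures of pyk1 and of its wild type. HSC82 measured 2728 and 3070 RPKM in BY4741, 2905 and 3530 in ser33, 1820 and 2690 in shm2, and 713 and 1338 in sam1. It measured 1364 and 1515 RPKM in the wild type of acs2-ts, 862 and 953 in acs2-ts, 1488 and 1796 in the wild type of pyk1, and 1705 and 2510 in pyk1. The sam1 and acs2-ts cultures overlapped at the low end, and all cultures of BY4741 and ser33 lay above all others. HSP82 measured 1532 and 1977 RPKM in BY4741, 2276 and 2641 in ser33, 1216 and 1847 in shm2, and 301 and 742 in sam1. It measured 1170 and 1271 RPKM in the wild type of acs2-ts, 810 and 933 in acs2-ts, 1669 and 2002 in the wild type of pyk1, and 1943 and 2572 in pyk1. The sam1 cultures were below all others, followed by acs2-ts.

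HSP104 measured 831 and 1262 RPKM in BY4741, 1599 and 1779 in ser33, 770 and 1103 in shm2, and 274 and 566 in sam1. It measured 761 and 850 RPKM in the wild type of acs2-ts, 840 and 969 in acs2-ts, 628 and 752 in the wild type of pyk1, and 833 and 1063 in pyk1. Both ser33 cultures were above and both sam1 cultures below all cultures of the other 6 strains.

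The small heat shock protein genes differed in level and in order. HSP26 measured 1019 and 3179 RPKM in BY4741, 2694 and 2923 in ser33, 1371 and 2464 in shm2, and 845 and 1305 in sam1. It measured 2239 and 3109 RPKM in the wild type of acs2-ts, 4582 and 6125 in acs2-ts, 2281 and 2495 in the wild type of pyk1, and 3095 and 3582 in pyk1. The acs2-ts cultures were the highest of all 16, and the sam1 cultures overlapped with BY4741, whose cultures differed by a factor of 3.12. HSP42 measured 455 and 788 RPKM in BY4741, 890 and 1022 in ser33, 248 and 510 in shm2, and 73.8 and 153.6 in sam1. It measured 377 and 398 RPKM in the wild type of acs2-ts, 501 and 543 in acs2-ts, 177 and 222 in the wild type of pyk1, and 291 and 353 in pyk1. Its sam1 cultures were below and its ser33 cultures above all others.

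BTN2, which sorts misfolded proteins into deposits, was among the least abundant of the 10 genes. It measured 55.7 and 158.9 RPKM in BY4741, 99.0 and 104.1 in ser33, 21.6 and 57.1 in shm2, and 15.8 and 16.5 in sam1. It measured 147 and 186 RPKM in the wild type of acs2-ts, 224 and 231 in acs2-ts, 34.7 and 47.2 in the wild type of pyk1, and 47.7 and 80.1 in pyk1. The acs2-ts cultures were the highest and the sam1 cultures the lowest of all 16, with a ratio of 14.1 between the 2 strain means.

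**Figure D1:**
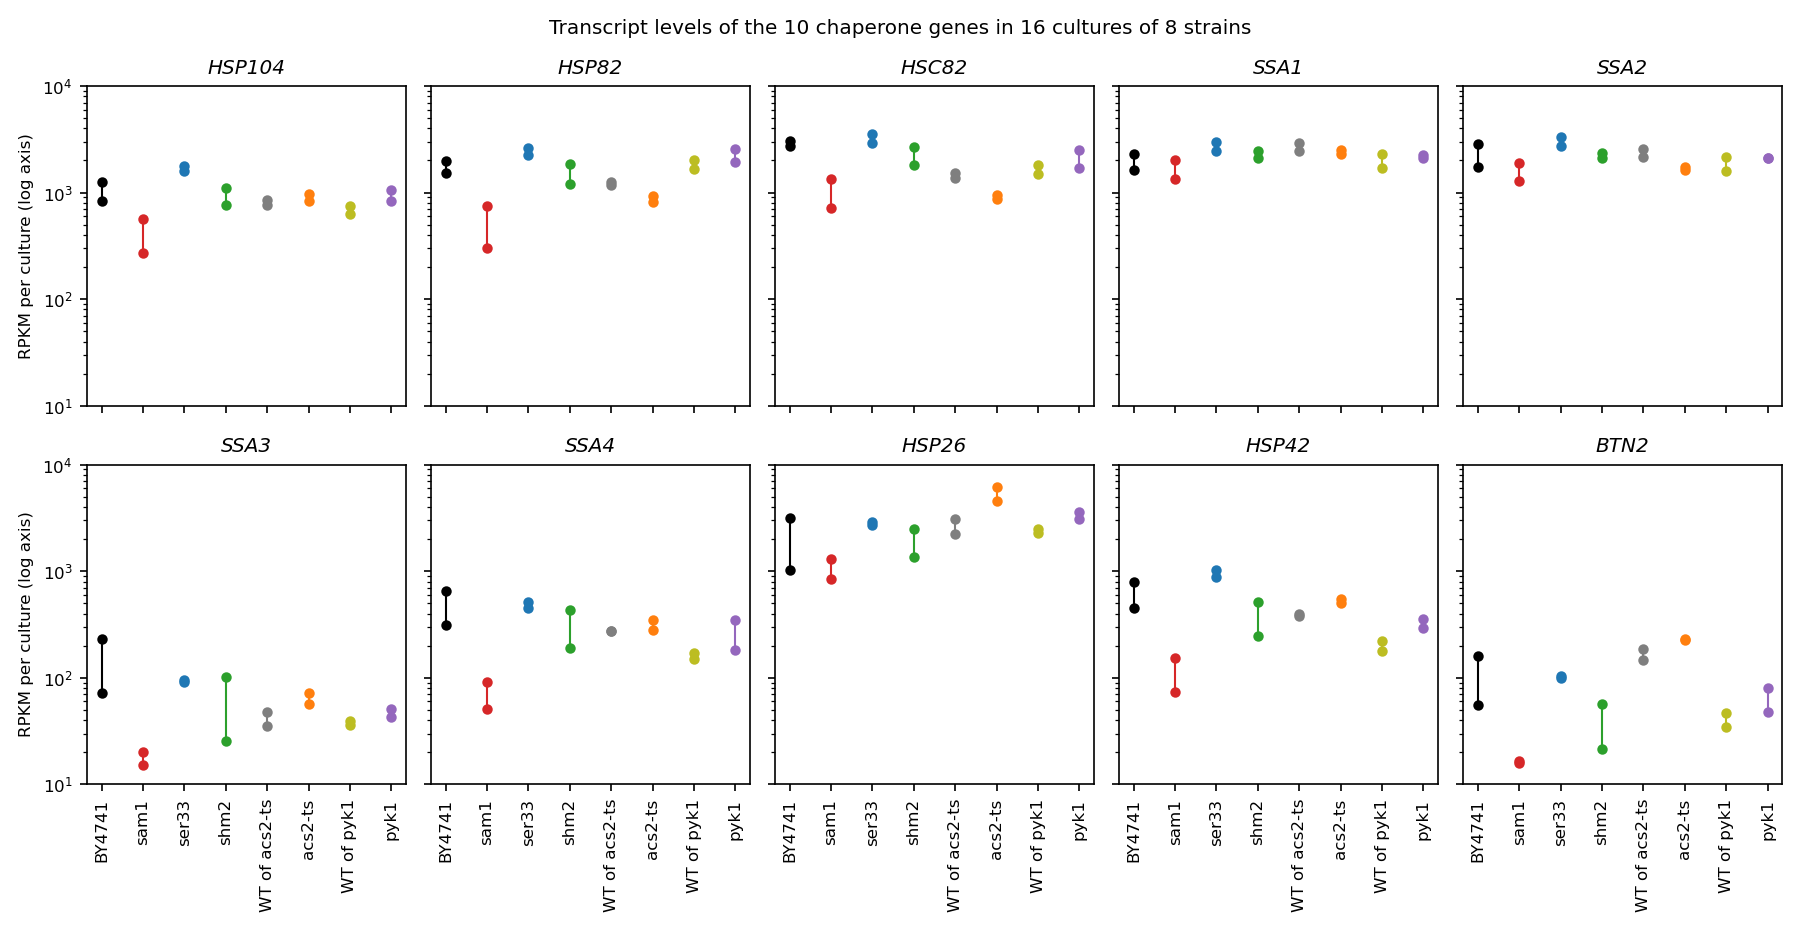
RPKM of the 10 chaperone genes (log axis) in each of 16 cultures, as the mean of the libraries of a culture, with a line joining the 2 cultures of a strain. The sam1 cultures lie lowest for SSA3, SSA4, HSP82, HSP104, HSP42 and BTN2, and the acs2-ts cultures lie highest for HSP26 and BTN2.

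Over the 8 strains, sam1 had the lowest mean for 9 of the 10 genes, all but HSC82, for which acs2-ts was lowest with 907 ± 65.0 RPKM. The ser33 strain had the highest mean for 7 genes, acs2-ts for HSP26 and BTN2, and BY4741 for SSA3. How many of all genes had their lowest mean in sam1 or their highest in ser33 was not counted. The ratio of the highest to the lowest strain mean ran from 1.62 for SSA1 and 1.88 for SSA2 to 8.41 for HSP42, 8.53 for SSA3 and 14.1 for BTN2. SSA1 thus varied least between strains and BTN2 most. Of the 7 pairs of neighbours in the order of strain means, the cultures did not overlap in 4 pairs for HSP42 and BTN2, in 3 for HSP104, SSA4 and HSP26, in 2 for HSP82, HSC82 and SSA3, in 1 for SSA2 and in 0 for SSA1. Such pairs were not counted for all genes, so these counts do not show whether the 10 genes differed from the rest.

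The cultures of a strain differed most for these genes in BY4741, sam1 and shm2. The median difference between the 2 cultures over the 10 genes, on the log2 scale, was 0.75 in BY4741, 0.73 in sam1 and 0.72 in shm2, where the median over the 6371 genes with a mean of at least 1 RPKM was 0.22, 0.24 and 0.26. It was 0.19 in ser33, 0.20 in the wild type of acs2-ts, 0.17 in acs2-ts, 0.27 in the wild type of pyk1 and 0.31 in pyk1, beside all-gene medians of 0.10, 0.20, 0.14, 0.10 and 0.16. Technical replicates of a culture differed by a median of 0.15 for these genes and by at most 0.61. In BY4741, replicate 2 was higher than replicate 3 for SSA3 by 1.66, for HSP26 by 1.64 and for SSA4 by 1.07 on the log2 scale, and also for BTN2, HSP42, HSP104 and HSP82, while SSA1, SSA2 and HSC82 were lower in it. In shm2, replicate 2 was the higher culture for 8 genes and replicate 1 for SSA1 and SSA2. Each comparison with BY4741 therefore rests on a control whose cultures were far apart for the inducible genes.

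The sam1 mutant, in which the transcript of an S-adenosylmethionine synthetase gene was near 0, had lower chaperone transcripts than BY4741. HSP82, HSC82, SSA4, HSP42 and BTN2 fell, and the other 5 genes had negative values that did not pass the test. HSP42 changed by −2.48 ± 0.50 (log2 fold change ± SE, n = 2 cultures per strain, adjusted p = 0.0409 by limma over all genes), SSA4 by −2.69 ± 0.53 (adjusted p = 0.0409 by limma) and BTN2 by −2.47 ± 0.59 (adjusted p = 0.0465 by limma). The Hsp90 genes changed by −1.88 ± 0.45 for HSP82 (adjusted p = 0.0465 by limma) and −1.56 ± 0.36 for HSC82 (adjusted p = 0.0446 by limma). SSA3 had the largest value, −2.81 ± 0.75, but did not pass (adjusted p = 0.0534 by limma), nor did HSP104 with −1.38 ± 0.40 (adjusted p = 0.0615 by limma). HSP26 had −0.79 ± 0.58, SSA2 −0.50 ± 0.31 and SSA1 −0.25 ± 0.29, with adjusted p by limma of 0.34, 0.265 and 0.543.

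Over all genes, 8.29% were called lower in sam1, beside 5 of the 10 chaperone genes. The median change of the 10 genes was −1.72, where the median of all genes was −0.03 and that of the 712 most abundant genes, which include 8 of the 10, was 0.05. Both sam1 cultures were below both BY4741 cultures for 7 of the 10 genes, beside 35% of all genes. The 5 calls were close to the threshold of 0.05. The count was 4 without sam1 replicate 1, and 0 without sam1 replicate 3, BY4741 replicate 2 or BY4741 replicate 3, settings in which limma called 0 of all 7125 genes. HSP26 came to 0.03 without BY4741 replicate 2, and SSA1 to 0.04 without sam1 replicate 3. SSA1 was also slightly positive without BY4741 replicate 3, while the other 8 values stayed negative with each culture left out. The count was also 0 with the first technical replicate only and with a model of sam1 and BY4741 alone, settings whose share of all genes is not given here.

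**Figure D2:**
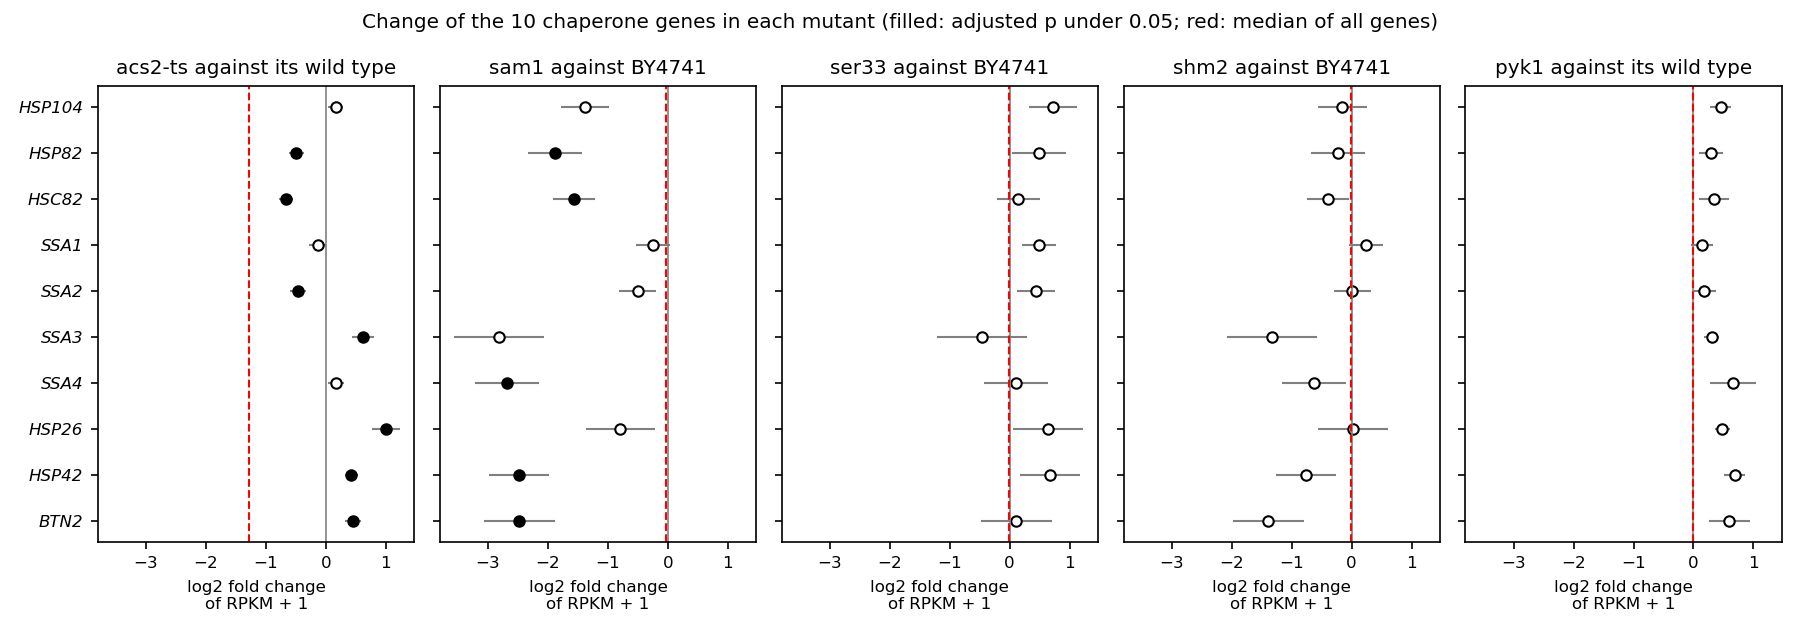
Log2 fold change of RPKM + 1 for the 10 chaperone genes in the 5 mutants, each against its control (points, with the standard error as bars). Filled points have an adjusted p under 0.05 and the red dashed line is the median of all genes, which lies at −1.27 in acs2-ts and near 0 in the other panels.

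The genes that work with these chaperones moved less uniformly in sam1, where 8% of all genes were called higher and 8.29% lower. Of 12 Hsp90 co-chaperone genes, 4 fell and 1 rose, with a median of −0.40: STI1, which links Hsp70 to Hsp90, fell by 2.05 and CPR6, a peptidyl-prolyl isomerase that binds Hsp90, fell by 1.65, while CNS1 rose by 1.04 (log2). Of 10 cytosolic Hsp70 and Hsp40 partner genes, 2 fell and 1 rose. The nucleotide exchange factor genes SSE1 and SSE2 fell by 1.11 and 1.48, and SNL1 rose by 0.75. Of 7 mitochondrial chaperone genes, 1 fell (HSP60, by 0.77) and 1 rose (MGE1, by 1.18). One of 8 endoplasmic reticulum genes rose (LHS1, by 0.86), 1 of 8 genes of the CCT chaperonin, which folds actin and tubulin, rose (CCT5, by 0.93), and 0 of 7 ribosome-associated chaperone genes passed (1 at an unadjusted p under 0.05 by limma). The 10 general stress genes under Msn2 and Msn4 had a median of −1.14 with a range from −2.07 to −0.86, but 0 passed. Of these 10, 8 had an unadjusted p under 0.05 by limma, as did 2968 of all 7125 genes. With values relative to ACT1, 3 of them were lower, beside 2.86% of all genes. HSF1 itself had −0.13 and MSN4 −0.24, which did not pass, MSN2 rose by 0.59, and CUR1, a partner of BTN2 in sorting misfolded proteins, fell by 1.30. Relative to ACT1 the rises of SNL1, CNS1, LHS1, CCT5 and MSN2 and the falls of HSP60 and CUR1 did not pass, and none of the 69 listed genes passed in the settings without sam1 replicate 3 or either BY4741 culture.

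The same culture values were set directly against the other mutants of the BY4741 group in comparisons added after the data were seen. Against ser33, all 10 genes were lower in both sam1 cultures, beside 36.7% of all genes, and 6 passed: HSP42 by −3.15 ± 0.50, SSA4 by −2.79 ± 0.53, BTN2 by −2.58 ± 0.59, HSP82 by −2.37 ± 0.45, HSP104 by −2.10 ± 0.40 and HSC82 by −1.71 ± 0.36 (adjusted p between 0.0223 and 0.0293 by limma). Over all genes 14.6% were called lower in this comparison. Calls remained without sam1 replicate 1 but were lost without sam1 replicate 3, ser33 replicate 2 or ser33 replicate 3. In these last settings limma called almost none of all genes. All 10 values stayed negative with each culture left out, between −3.68 and −2.63 for HSP42 and between −1.02 and −0.44 for SSA1. Against shm2, both sam1 cultures were also lower for all 10 genes, beside 25.4% of all genes, but 0 passed, where 0.182% of all genes did. In that comparison 5 of the 10, beside 1562 of all 7125 genes, had an unadjusted p under 0.05 by limma, and the values ran from −2.06 for SSA4 to −0.49 for SSA1.

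The ser33 mutant, in which the transcript of a phosphoglycerate dehydrogenase gene of serine synthesis was near 0, had the highest strain mean for 7 chaperone genes. For SSA4 that mean, 481 ± 42.0 RPKM, was close to the 479 ± 240 of BY4741. None of the 10 genes passed against BY4741 (0.014% of all genes passed in either direction), and 0 had an unadjusted p under 0.05 by limma, beside 458 of all 7125 genes. The values were positive for 9 genes, from 0.10 ± 0.53 for SSA4 to 0.72 ± 0.40 for HSP104, and −0.46 ± 0.75 for SSA3, with a median of 0.46 beside −0.02 for all genes. Relative to ACT1, which shifts the median of all genes to −0.23, HSC82, SSA4 and BTN2 came out below 0 but above that median. In 4 of the 10 genes, beside 18.8% of all genes, the lower ser33 culture exceeded the higher BY4741 culture. For HSP104 the 95% interval of the difference ran from −0.26 to 1.70.

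The shm2 mutant, in which the transcript of the cytosolic serine hydroxymethyltransferase gene was near 0, also had 0 of 10 genes past the test against BY4741 (0.014% of all genes passed in either direction), with 0 at an unadjusted p under 0.05 by limma, beside 485 of all 7125 genes. The lowest values were −1.39 ± 0.59 for BTN2 and −1.32 ± 0.75 for SSA3, and the highest 0.25 ± 0.29 for SSA1, with 7 of the 10 negative and a median of −0.31. SSA2, at 0.01, and HSP26, at 0.03, came out at −0.16 and −0.14 relative to ACT1, where the median of all genes was −0.19. The sam1, ser33 and shm2 comparisons share the BY4741 cultures. For HSP42 they gave −2.48, 0.67 and −0.76, for SSA4 −2.69, 0.10 and −0.63, and for HSP82 −1.88, 0.49 and −0.22.

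In acs2-ts, whose name denotes a temperature-sensitive allele of an acetyl-CoA synthetase gene, the chaperone genes stood apart from a table in which most genes were lower. HSP26 rose by 1.01 ± 0.23 (log2 fold change ± SE, n = 2 cultures per strain, adjusted p = 0.00729 by limma), SSA3 by 0.61 ± 0.19 (adjusted p = 0.0224 by limma), BTN2 by 0.46 ± 0.14 (adjusted p = 0.0222 by limma) and HSP42 by 0.43 ± 0.10 (adjusted p = 0.00989 by limma). The Hsp90 genes and SSA2 fell as deposited: HSC82 had −0.67 ± 0.12, HSP82 −0.49 ± 0.12 and SSA2 −0.47 ± 0.14 (adjusted p = 0.00277, 0.0109 and 0.02 by limma). SSA4 had 0.17 ± 0.13, HSP104 0.17 ± 0.13 and SSA1 −0.14 ± 0.15, and these 3 did not pass. Both acs2-ts cultures were above both wild-type cultures for 5 of the 10 genes, beside 7.56% of all genes, and below for 3, beside 82.2%.

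Over all genes 5.7% were called higher and 78.1% lower, and the median change was −1.27. RPKM divides by the reads of a library, so a value is a share of that library and not an amount per cell. Relative to the median of all genes, all 10 chaperone genes were higher, from 0.61 for HSC82 to 2.28 for HSP26, with 1.14 for SSA1, 1.44 for HSP104 and SSA4, and 1.70 for HSP42. The 712 most abundant genes had a median of −0.90. With median-of-ratios scaling, which brings the median of all genes close to 0, all 10 genes were called higher and none lower, and HSP82 came to 0.97, HSC82 to 0.80, SSA2 to 1.00 and SSA1 to 1.32. In that setting 26.6% of all genes were called higher and 25.1% lower, so 51.4% of calls were higher against 6.8% as deposited. The direction of HSP82, HSC82, SSA1 and SSA2 in acs2-ts thus depends on the scaling, and that of the other 6 genes does not: they were positive as deposited, relative to ACT1 and under median-of-ratios scaling. With 1 culture left out, some calls in each direction were lost, while the called genes kept their sign. HSP26 ran from 0.77 to 1.25, SSA3 from 0.40 to 0.82, BTN2 from 0.29 to 0.62 and HSP42 from 0.37 to 0.48. HSC82 ran from −0.74 to −0.59, HSP82 from −0.59 to −0.39 and SSA2 from −0.59 to −0.35. In 1 model of all 8 strains the counts of higher and of lower genes were both 0. The share of all genes is not given here for that model. Whether growth temperature differed between acs2-ts and its wild type, and its part in the result, was not tested.

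Partners of the same chaperones followed the fall of all genes more closely in acs2-ts as deposited. All 12 Hsp90 co-chaperone genes fell, with a median of −1.68, among them the phosphatase gene PPT1 by 2.28 and TAH1 by 2.07, and 9 of 10 cytosolic Hsp70 and Hsp40 partners fell, with a median of −1.10, among them SNL1 by 2.09 and the Hsp40 gene CAJ1 by 1.65. All 7 ribosome-associated chaperone genes (median −1.48), all 8 CCT subunit genes (median −1.43) and 6 of 7 mitochondrial chaperone genes (median −1.10) fell as well. The largest of these falls were 1.77 for BTT1 and 1.70 for the Hsp40 gene ZUO1 at the ribosome, 2.01 for TCP1 and 1.84 for CCT5 in the chaperonin, and 1.84 for the exchange factor gene MGE1 and 1.78 for HSP10 in mitochondria. Under median-of-ratios scaling, which called 25.1% of all genes lower, 6 Hsp90 co-chaperone genes were still lower and 1 was higher, with a median of −0.26. In the other lists that scaling called 5 cytosolic partners higher and 1 lower, 1 ribosome-associated gene higher and 2 lower, 3 CCT genes higher and 3 lower, and 4 mitochondrial genes higher and 2 lower. In the endoplasmic reticulum, PDI1, the protein disulfide isomerase gene, rose by 1.60 and KAR2, the Hsp70 gene of that compartment, by 0.93, with 3 of 8 higher and 5 lower as deposited and 5 higher and 0 lower under median-of-ratios scaling. The falls were largest for EUG1, a relative of PDI1, at −1.39, and LHS1, a further Hsp70 gene, at −1.31, and came to 0.04 and 0.12 under median-of-ratios scaling. Of the 10 general stress genes, HSP12, a stress protein gene, and TSL1, a subunit gene of trehalose synthesis, rose by 1.07 and 0.97 and 3 fell as deposited, among them SOD2, the mitochondrial superoxide dismutase gene, by 0.79 and HSP31 by 0.61, and all 10 were higher under median-of-ratios scaling. HSF1 fell by 1.00 and MSN4 by 1.75 as deposited, and they came to 0.39 and −0.35 under median-of-ratios scaling. MSN2 fell by 0.47 as deposited and came to 0.93. CUR1 fell by 1.06 and came to 0.36, and the ubiquitin gene UBI4 rose by 0.29 as deposited and by 1.75 under median-of-ratios scaling.

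**Figure D3:**
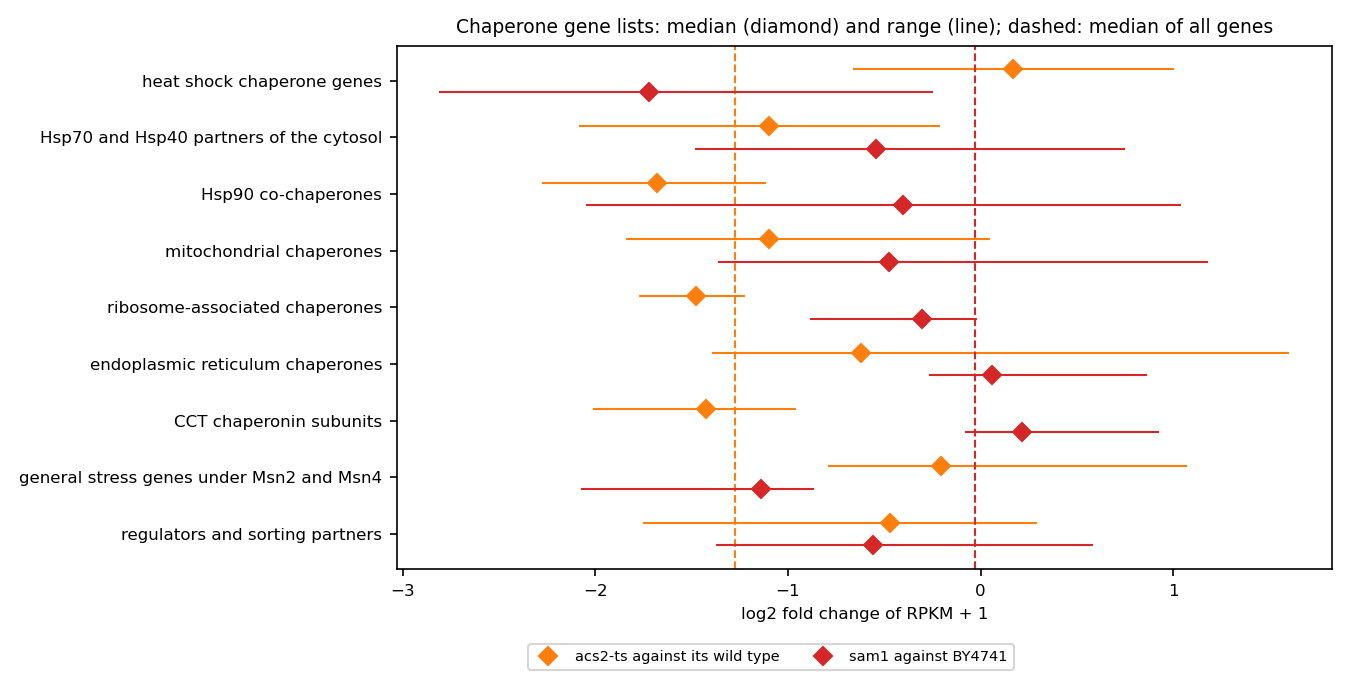
Median (diamond) and range (line) of the log2 fold change of RPKM + 1 in 9 gene lists for acs2-ts against its wild type (orange) and sam1 against BY4741 (red), with the medians of all genes as dashed lines. The 10 heat shock chaperone genes have the highest list median in acs2-ts, 0.17, and the lowest in sam1, −1.72.

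The pyk1 mutant had 10 positive values against its wild type, from 0.14 ± 0.18 for SSA1 to 0.69 ± 0.17 for HSP42, but 0 passed, as did 0% of all genes. At an unadjusted p under 0.05, limma gave 2, HSP42 and HSP26 (0.48 ± 0.13), beside 1018 of all 7125 genes. Both pyk1 cultures were above both wild-type cultures for 6 of the 10 genes, beside 22.5% of all genes. SSA1 came to −0.01 relative to ACT1, where the median of all genes was −0.15. The median of the 10 genes was 0.40 as deposited, where that of all genes was close to 0.

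The changes in acs2-ts and pyk1 share no sample, so their difference was tested. Over all genes 72.3% passed in either direction, but 0 of the 10 chaperone genes did, with 1 at an unadjusted p under 0.05 by limma, beside 5261 of all 7125 genes. HSC82 came closest, with a 95% interval from −1.94 to −0.07 (acs2-ts minus pyk1, adjusted p = 0.0515 by limma), and HSP26 had 0.53 ± 0.65. Relative to the all-gene median of −1.28, the 10 differences were positive. Under median-of-ratios scaling 2 of the 10 genes were called higher, beside 14.5% of all genes, and 8 of the 10 values changed sign.

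The wild types themselves differed for these genes. Against BY4741, the wild type of acs2-ts was lower for HSC82 (−1.01 ± 0.30, adjusted p = 0.0158 by limma) and SSA3 (−1.64 ± 0.57, adjusted p = 0.0312 by limma), 2 of the 10 genes where 29.6% of all genes were called lower. Relative to ACT1, 0 were called lower and 1 higher, beside 7.45% and 21.8% of all genes. The wild type of pyk1 was lower for HSP42 (−1.59 ± 0.38, adjusted p = 0.00478 by limma), SSA4 (−1.49 ± 0.45, adjusted p = 0.0155 by limma), SSA3 (−1.75 ± 0.57, adjusted p = 0.0221 by limma) and HSC82 (−0.82 ± 0.30, adjusted p = 0.0359 by limma), 4 of the 10 genes where 15.8% of all genes were called lower. The median of all genes was 0.28 in that comparison, and values relative to ACT1 shift it to 0.77. On that scale 1 of the 10 genes was called lower and 1 higher, beside 3.19% and 53.1% of all genes. With 1 culture left out, the wild type of acs2-ts had 0 lower genes without its replicate 2 and 1 without its replicate 1 or either BY4741 culture. The wild type of pyk1 had 2 without its replicate 1, 1 without its replicate 3 or BY4741 replicate 2, and 4 without BY4741 replicate 3. The share of all genes is not given for these fits with 1 culture left out. Strain background, batch and growth cannot be told apart here.

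Ratios within a library do not depend on its total. HSP82 reached 0.500 and 0.727 of HSC82 in the BY4741 cultures, 0.423 and 0.555 in sam1, 0.750 and 0.786 in ser33, and 0.672 and 0.690 in shm2. It reached 0.837 and 0.858 in the wild type of acs2-ts and 0.939 and 0.975 in acs2-ts. It reached 1.11 and 1.12 in the wild type of pyk1 and 1.02 and 1.14 in pyk1. The inducible Hsp90 gene therefore passed the constitutive one in the 4 cultures of the pyk1 pair, and both acs2-ts cultures had a higher ratio than both cultures of their wild type. SSA4 was 0.0396 and 0.0494 of SSA2 in sam1, below all other cultures, 0.109 and 0.374 in BY4741, 0.155 and 0.165 in ser33, and 0.0807 and 0.207 in shm2. The same ratio was 0.108 and 0.129 in the wild type of acs2-ts and 0.175 and 0.197 in acs2-ts. It was 0.0781 and 0.0933 in the wild type of pyk1 and 0.0854 and 0.166 in pyk1, which overlapped. SSA3 to SSA2 was highest in BY4741 replicate 2, at 0.133, against 0.0255 in replicate 3. SSA1 to SSA2 was 1.40 and 1.43 in acs2-ts, above the other 14 cultures, where it lay between 0.811 and 1.13, with the limit on these near-identical genes given above.

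**Figure D4:**
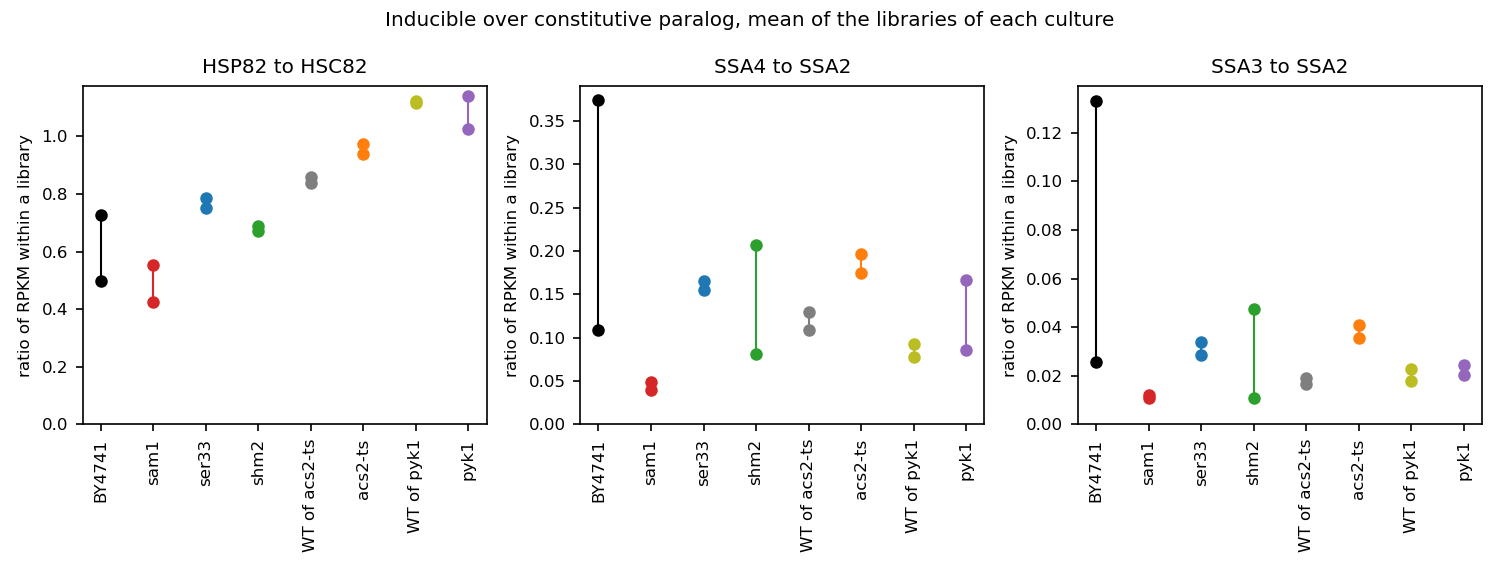
Ratio of RPKM between paralogs in each culture (mean of its libraries), with a line joining the 2 cultures of a strain: HSP82 to HSC82, SSA4 to SSA2 and SSA3 to SSA2. HSP82 to HSC82 is above 1 only in the pyk1 pair, SSA4 to SSA2 is lowest in sam1, and SSA3 to SSA2 is 0.133 in BY4741 replicate 2.

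Across the 16 cultures, SSA4, HSP42 and HSP104 followed the rest of the genes most closely. Likeness is described by Pearson's r of log2(RPKM + 1) over cultures that share a library type, a normalization and, in pairs, a strain. Against the mean of the other 9 genes, SSA4 had r = 0.97, HSP42 0.96, HSP104 0.95 and SSA3 0.85, and BTN2 0.66, HSC82 0.59, HSP26 0.59, SSA1 0.56 and SSA2 0.55 were lower, with HSP82 at 0.72. The closest pair was SSA4 and HSP42 (r = 0.96), and HSC82 and HSP26 had r = −0.01. Among all other genes with a mean of at least 1 RPKM, the 5 most like the mean of the 10 were HSP78 (r = 0.91), which encodes the mitochondrial relative of Hsp104, ZPR1 (0.91), MIN4 (0.88), CYC7 (0.87), a cytochrome c isoform gene, and YJR096W (0.87).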

How the data were processed

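Total RNA was depleted of ribosomal RNA and turned into stranded Illumina libraries. The authors deposited RPKM values of 7125 genes for 28 libraries. The submitters' processing notes name CASAVA 1.8.2, TopHat2 2.0.13, edgeR and the build sacCer3, with no role or order; the counting, annotation and filters are not given in the sources used here. Another 32 columns hold no name and no value. Depth was recovered from RPKM times gene length, which gave whole reads for 99.5% to 100% of low values (at most 15.4% with a wrong step), and no count test was run.

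Technical replicates were averaged on the log2(RPKM + 1) scale to 1 value per culture, with no filter on low values. Fold changes on this scale understate those of low genes. Strains were compared with limma 3.58.1 (lmFit, eBayes with trend, two-sided) under R 4.3.3. A single model held the sam1, ser33 and shm2 mutants with BY4741, acs2-ts and pyk1 were each fitted with their own wild type, and all 8 strains entered 1 model for the wild types and for the difference between acs2-ts and pyk1. P-values were adjusted by Benjamini-Hochberg over 7125 genes, with a threshold of 0.05. All 10 chaperone genes were named. From 8 lists of 69 related genes, in the acs2-ts and sam1 comparisons, up to 2 called genes with the largest rise and 2 with the largest fall were named, besides the regulators HSF1, MSN2 and MSN4. The genes and lists were chosen with earlier results of these data known. Alternatives were a pseudocount of 0.1, a minimum mean of 1 RPKM, the first technical replicate, median-of-ratios scaling, values relative to ACT1, other strains in the model, a replicate block and each culture left out. Motifs and sequences were read from R64 with Python 3.11.15 and coding regions from RefSeq, to which 6048 of 7125 genes matched by systematic name.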

Additional observations from a re-analysis of the deposited data

How the results depend on the processing

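Over 10 comparisons and their alternatives, 1100 values of single chaperone genes were recomputed: 917 kept their direction and their side of the threshold, 100 lost a call, 28 gained one and 55 changed sign. The cause of these changes was not tested, except that leaving out a culture or using 2 strains leaves fewer samples. With a pseudocount of 0.1 the counts in acs2-ts and sam1 were those reported. Scaling by ACT1 gave 5 higher and 3 lower genes in acs2-ts, beside 6.89% and 76% of all genes. In sam1 it gave 7 lower, beside 2.86% of all genes.

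With the first technical replicate only, the lower genes were 1 in acs2-ts, 0 in sam1 and 1 in the wild type of acs2-ts. With only the strains compared in the model they were 0 in sam1, 1 in the wild type of acs2-ts and 2 in that of pyk1. With all strains in 1 model acs2-ts had 0 higher and 0 lower. Relative to ACT1, the wild type of acs2-ts had 1 higher and 0 lower, beside 21.8% and 7.45% of all genes. That of pyk1 had 1 higher and 1 lower, beside 53.1% and 3.19%. In sam1 against shm2 2 were lower, beside 0.267%. With a minimum mean of 1 RPKM the difference between acs2-ts and pyk1 had 1 lower gene.

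Under median-of-ratios scaling acs2-ts had 10 higher and 0 lower genes, with HSP82 at 0.97, HSC82 at 0.80, SSA1 at 1.32 and SSA2 at 1.00. The difference between acs2-ts and pyk1 then had 2 higher genes, beside 14.5% of all genes. HSP104 came to 1.21, HSP82 to 0.72, HSC82 to 0.50, SSA1 to 1.23, SSA2 to 0.86, SSA4 to 1.01, HSP42 to 1.24 and BTN2 to 1.36. In the wild type of pyk1, HSP82 came to −0.26 and SSA1 to −0.30. Relative to ACT1, ser33 had HSC82 at −0.061, SSA4 at −0.11 and BTN2 at −0.10, shm2 had SSA2 at −0.16 and HSP26 at −0.14, pyk1 had SSA1 at −0.0067, the wild type of pyk1 had SSA2 at 0.23, and the difference between acs2-ts and pyk1 had SSA1 at 0.0019, HSP42 at 0.014 and BTN2 at 0.13. This scaling moved the share of calls that were higher to 67.1% in sam1 (49.1% as deposited), 74.5% and 94.3% in the wild types of acs2-ts and pyk1 (44.1% and 72.3%), 79.8% in sam1 against ser33 (51.5%) and 90.5% in sam1 against shm2 (46.2%).

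With 1 culture left out, a lone culture is assumed to vary like the others. The counts ran from 1 to 4 higher and 1 to 3 lower in acs2-ts, from 0 to 4 lower in sam1, from 0 to 2 higher and 0 to 1 lower in the wild type of acs2-ts, from 0 to 1 higher and 1 to 4 lower in that of pyk1, from 0 to 1 lower in the difference between acs2-ts and pyk1, from 0 to 5 lower in sam1 against ser33 and from 0 to 1 lower in sam1 against shm2. Values that changed sign ran from −0.54 to 0.044 (SSA1) and −1.61 to 0.031 (HSP26) in sam1. In ser33 they ran from −1.29 to 0.37 (SSA3), −0.43 to 0.63 (SSA4), −0.18 to 1.46 (HSP26) and −0.64 to 0.86 (BTN2). In shm2 they ran from −0.45 to 0.15 (HSP104), −0.52 to 0.081 (HSP82), −0.0054 to 0.50 (SSA1), −0.34 to 0.37 (SSA2) and −0.79 to 0.85 (HSP26). In pyk1 they ran from −0.074 to 0.35 (SSA1) and −0.046 to 0.41 (SSA2). In the wild type of acs2-ts they ran from −0.28 to 0.43 (SSA2) and −0.27 to 1.37 (HSP26). In that of pyk1 they ran from −0.11 to 0.26 (HSP82), −0.22 to 0.28 (SSA1), −0.61 to 0.10 (SSA2) and −0.41 to 1.23 (HSP26). In the difference between acs2-ts and pyk1, BTN2 ran from −0.51 to 0.22.

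The replicate numbers do not pair the samples by any label. Same-numbered cultures of BY4741 and ser33 deviated with r = −0.20 and those of BY4741 and shm2 with r = 0.72. With the replicate number as a block, 0 chaperone genes passed in sam1 against BY4741 and in sam1 against ser33. In both of these fits limma called 0 of all 7125 genes. With that block in shm2, SSA2 came to −0.14 and HSP26 to −0.16. With the crossed pairing, chosen after seeing the data, 0 chaperone genes passed in ser33. The share of all genes is not given for the crossed fit. The pair of acs2-ts and its wild type, blocked by the numbers of the sample descriptions, gave 3 higher and 3 lower. Over all genes, that fit called 6010 in either direction. No paired analysis was possible for pyk1 because it shares 1 number with its wild type.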
